A study of Mus musculus with 6 samples.

Results

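Splicing factors and RNA helicases were followed by name: probe sets with a single platform gene symbol that begins with Hnrnp, Srsf, Sf3a, Sf3b, Snrp, Prpf, Ddx or Dhx, leaving out the sex-linked pair Ddx3x and Ddx3y. This rule uses no measured value, but the families were chosen with earlier results of these data known. The rule took 281 of 45037 probe sets and 109 of 18193 named genes. A filter on low signal kept 247 of these probe sets and 103 of these genes for testing. The arrays held total RNA of 6 fetal mouse lungs at E18.5, 1 array per animal, in 2 groups of 3. All animals carried floxed Nfib alleles (Nfibf/f), Nfib being a transcription factor of the nuclear factor I family. The 3 controls carried nothing further on the labels, and the other 3 also carried Dermo1-Cre, a Cre recombinase expressed from the Dermo1 (Twist2) locus that is used to recombine floxed genes in mesenchyme, so the epithelium is not its target. Sources used here say nothing of littermates, and no control carried Cre without floxed Nfib. The comparison asks what mesenchymal Nfib does for proliferation and epithelial maturation of the lung before birth.

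Pre-mRNA splicing removes introns in the spliceosome, a machine of small nuclear ribonucleoproteins (snRNPs) that assembles anew on each intron. Sm proteins form a ring on each small nuclear RNA, the SF3A and SF3B complexes let the snRNP that binds the branch point settle on the intron, and Prpf proteins build and rearrange the later complexes. SR proteins, rich in arginine and serine, and hnRNPs, abundant proteins that coat nascent RNA, tune which exons are kept. DEAD-box (Ddx) and DEAH-box (Dhx) helicases use ATP to unwind RNA or strip proteins from it, in splicing, ribosome assembly, translation and the sensing of viral RNA. Most of these genes are expressed in every cell.

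Of the 7 Nfib probe sets 6 were tested, and 5 rose in the lungs labelled Dermo1-Cre. The brightest measured 10.24, 10.32 and 10.17 in controls and 11.24, 11.16 and 11.49 with Cre (log2 difference 1.05 ± 0.12 SE, limma adjusted p = 0.0049). No label or file places these probes inside or outside the floxed part, so they cannot check the labels; the groups are called Cre-labelled and control-labelled lungs throughout. On each array the trimmed mean signal was 150.04 to 150.05. Lists of alveolar type II cell and lung mesenchyme markers averaged 9.78 to 10.8 and 10.3 to 10.5 in log2 signal. Of the 8 alveolar type I cell markers 4 fell at an adjusted p of 0.05 (limma), beside 3.04% of all tested genes. Cardiac muscle markers averaged 7.84 to 9.89 on control-labelled and 6.81 to 8.43 on Cre-labelled arrays. Each difference below is the Cre-labelled mean less the control-labelled mean in log2 units, followed by its limma standard error (SE); it is a ratio within 1 probe set and says nothing of levels between genes.

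Start regions of a few genes show what kind of promoter these families have. In 127 windows of the 250 bases before the start (97 genes matched by symbol, RefSeq, GRCm38.p6) the median CpG count was 19, against 6 over all 32851 windows of that length. The 4 printed are Srsf1, which holds the only probe set past the threshold, and the 3 other genes of smallest p with a single start in the table; capitals mark, on either strand, the box CCAAT, the word TTGGC or any of the E2F-type words named after the sequences. They lie at chr11:88047123-88047372 (plus strand), chr4:135855821-135856070 (plus), chr2:28840156-28840405 (plus) and chr7:25754760-25755009 (minus), each printed along its gene's strand.
Srsf1: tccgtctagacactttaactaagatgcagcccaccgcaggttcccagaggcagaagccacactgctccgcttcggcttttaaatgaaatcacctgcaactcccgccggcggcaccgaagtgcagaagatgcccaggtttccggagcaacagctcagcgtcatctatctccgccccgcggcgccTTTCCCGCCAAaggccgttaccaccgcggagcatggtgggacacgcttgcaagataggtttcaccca
Srsf10: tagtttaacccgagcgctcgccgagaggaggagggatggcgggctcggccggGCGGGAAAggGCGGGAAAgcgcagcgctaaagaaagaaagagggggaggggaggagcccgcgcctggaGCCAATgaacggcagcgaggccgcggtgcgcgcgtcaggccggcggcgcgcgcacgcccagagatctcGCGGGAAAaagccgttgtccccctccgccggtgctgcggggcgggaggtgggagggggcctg
Ddx31: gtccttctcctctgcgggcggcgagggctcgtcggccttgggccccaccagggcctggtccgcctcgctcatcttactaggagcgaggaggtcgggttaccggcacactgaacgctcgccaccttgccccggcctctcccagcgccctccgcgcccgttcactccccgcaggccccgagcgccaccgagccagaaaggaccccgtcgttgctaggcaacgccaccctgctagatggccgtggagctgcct
Hnrnpul1: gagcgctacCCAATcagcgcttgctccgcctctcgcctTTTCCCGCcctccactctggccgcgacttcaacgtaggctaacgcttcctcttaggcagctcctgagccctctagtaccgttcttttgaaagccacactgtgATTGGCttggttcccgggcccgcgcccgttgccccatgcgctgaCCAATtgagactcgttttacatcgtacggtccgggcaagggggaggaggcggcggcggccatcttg
CCAAT, the box bound by NF-Y, was present in 45.7% of the windows against 33.8% of all windows. TTGGC, the core letters bound by nuclear factor I proteins, was in 58.3% against 41.5%, and 44 of the 127 windows held both words, which can overlap. The full palindrome of nuclear factor I, in which TTGGC is followed after any 5 bases by its reverse complement, was in 0 of 127 windows and in 0.0365% of all. The 3 E2F-type words TTTCCCGC, TTTGGCGC and TTTCGCGC together were in 6.3% against 1.53%; Srsf10 carried 3 matches, Srsf1 and Hnrnpul1 1 each, and Ddx31 none of any word, so it stands in lower case. These shares describe letters only, and windows rich in CpG differ in base composition from the rest.

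Splicing factor and helicase genes read slightly higher in Cre-labelled lungs as a group, but almost none passed a test on its own. Of 103 tested genes, each stood for by its brightest probe set, 82 had a higher mean (79.6%), against 48.5% of all 12826 tested genes. Their median log2 difference was 0.15, a 1.11-fold difference, beside a median of -0.011 over all genes. On single arrays the median deviation of the 103 genes from their own 6-array means was -0.08, -0.03 and -0.11 in control-labelled lungs against 0.09, 0.10 and 0.06 in Cre-labelled ones. All 3 Cre-labelled arrays thus lay above all 3 control-labelled arrays, while the same medians over all genes stayed between -0.003 and 0.014. More cells of a type and more RNA per cell cannot be told apart in bulk lung RNA.

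**Figure D1:**
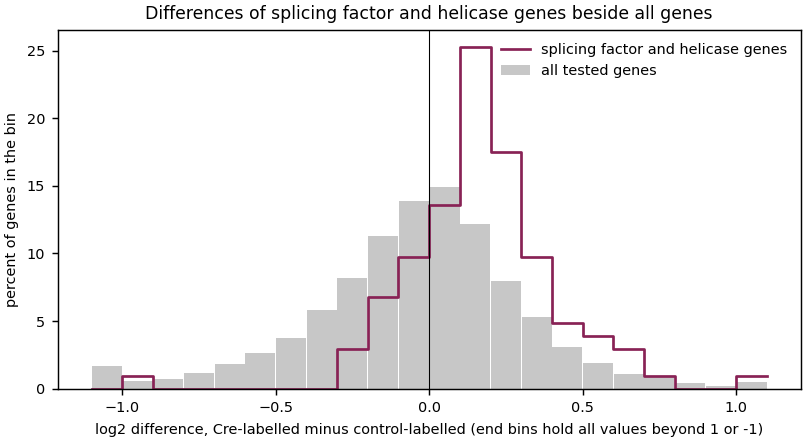
Log2 differences (x axis, in bins of 0.1) as the percent of genes per bin (y axis), for all 12826 tested genes (grey bars) and the 103 tested splicing factor and helicase genes (line). The line is narrow and shifted to the right of the bars, with its median at 0.15 against -0.011.

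At an adjusted p of 0.05, 1 of the 247 tested probe sets rose and none fell (limma, with p-values adjusted by Benjamini-Hochberg over 27022 probe sets), where 1.41% of all tested probe sets rose and 2.16% fell (3.56% in either direction). Counted by the brightest probe set, 0 of 103 genes passed, against 1.92% of all genes higher and 3.04% lower (4.96% together). At an unadjusted p of 0.05 (limma), 68 probe sets were higher and 1 lower, beside 9.5% and 9.97% of all tested probe sets. By gene, 27 were higher and 1 lower, beside 10.7% and 12.8% of all genes. At an adjusted p of 0.10, 26 probe sets were higher and 1 lower, beside 3.45% and 4.4% of all tested probe sets, and 8 genes were higher and 1 lower, beside 4.12% and 6.03% of all genes. The higher side thus held more of these families than of the array at both looser thresholds, and the lower side less. Complete separation of the groups was counted as well. All 3 Cre-labelled arrays lay above all 3 control-labelled arrays for 88 of 247 probe sets (13.3% of all tested) and 37 of 103 genes (15.3% of all genes). They lay below for 2 probe sets (12.8% of all tested), which were those of Prpf18 and Ddx6 (16.5% of all genes). Of the 4 tested Ddx6 probe sets only the brightest was lower, and 3 were higher, by up to 0.26. Over probe sets 204 of 247 had a higher mean, beside 50.1% of all tested.

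Higher means were seen at every signal level. With the tested probe sets cut into 3 equal classes by mean signal, 155 of the 247 lay in the brightest class, and 137 of these had a higher mean, with a median of 0.20, beside 0.017 for all 9007 probe sets of that class. Medians were 0.15 for the 58 in the middle class and 0.20 for the 34 in the lowest, of which 45 and 22 had a higher mean. The share with a higher mean thus fell with signal, from 88.4% to 77.6% and 64.7%. Over all tested probe sets of these classes it was 52.8%, 48.9% and 48.7%. Probe sets whose names end in _x_at, which by Affymetrix's naming hold probes that can match other sequences, had a median of 0.30 (33 probe sets) against 0.17 for the 144 with the plain _at ending; over the whole array these medians were 0.07 and -0.002. Several hnRNP genes have processed pseudogenes, so signal on such probe sets can be shared with near-identical copies. Control-labelled replicate 3 was the lowest of the 6 arrays for 48 of the 103 genes, and control-labelled replicate 1 for 27. Without either array the median difference of the genes stayed between 0.15 and 0.17, as it did without any other single array.

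**Figure D2:**
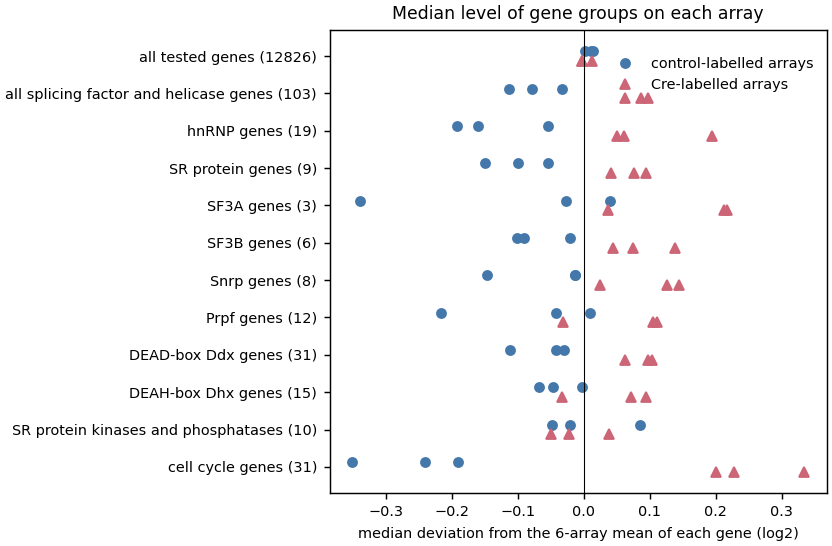
Median deviation of each gene group from its genes' own 6-array means (x axis, log2), 1 point per array; circles are the 3 control-labelled and triangles the 3 Cre-labelled arrays, with the number of tested genes in parentheses. The groups do not overlap for the 103 genes together, hnRNP, SR, SF3B, Snrp and Ddx genes, while they overlap for SF3A, Prpf and Dhx genes and for the kinases of SR proteins.

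SR protein genes held the only call. Srsf1, a founding SR protein that binds exonic enhancers, had 7 probe sets. The probe set that passed read 9.55, 9.47 and 9.27 in control-labelled lungs against 9.90, 9.90 and 10.14 in Cre-labelled ones, and rose by 0.55 ± 0.11 SE (limma adjusted p = 0.034). All Cre-labelled arrays lay above all control-labelled ones. The call was lost in 11 of 19 alternative fits, among them each of the 6 without 1 array (adjusted p 0.064 to 0.092), and over all 19 the adjusted p ran from 0.024 to 0.11. The brightest Srsf1 probe set read 11.54, 11.66 and 11.51 in control-labelled lungs against 11.87, 11.88 and 12.19 in Cre-labelled ones, a 1.33-fold difference (0.41 ± 0.13 SE, adjusted p = 0.12). All 6 tested Srsf1 probe sets were higher, by 0.26 to 0.55, and 5 of them separated the groups. The remaining probe set, at 2.05 ± 0.54 and 0.76 ± 1.13 (SD, n = 3 each), lay below the filter.

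Srsf10, a splicing regulator whose action depends on its phosphorylation, read 9.92, 10.07 and 9.85 in control-labelled lungs against 10.26, 10.42 and 10.53 in Cre-labelled ones (0.46 ± 0.11 SE, limma adjusted p = 0.055). This was the smallest adjusted p among brightest probe sets of all 103 genes, and the groups did not overlap. Its other 3 probe sets had differences of 0.09 to 0.28, and the average of all 4 differed by 0.24. Srsf3, the smallest SR protein and a mediator of mRNA export, read 11.10, 11.31 and 11.06 against 11.51, 11.42 and 11.63 on its brightest probe set (0.36 ± 0.12 SE, adjusted p = 0.13). Each of its 6 tested probe sets was higher, by 0.18 to 0.63, and 3 had an adjusted p between 0.060 and 0.086. Srsf2, which also binds exonic enhancers, differed little, with 11.14 ± 0.10 and 11.28 ± 0.17 (SD, n = 3 each; adjusted p = 0.60, 95% interval of the difference -0.14 to 0.41). Of the 9 tested SR genes 8 had a higher mean, with a median of 0.19; Srsf5 alone was lower, at -0.10 ± 0.16 SE. Srsf12 could not be tested at a mean below the filter; it read 3.06, 2.99 and 3.32 in control-labelled lungs against 4.21, 4.40 and 4.06 in Cre-labelled ones, and its adjusted p was 0.20 in the fit without a filter.

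**Figure D3:**
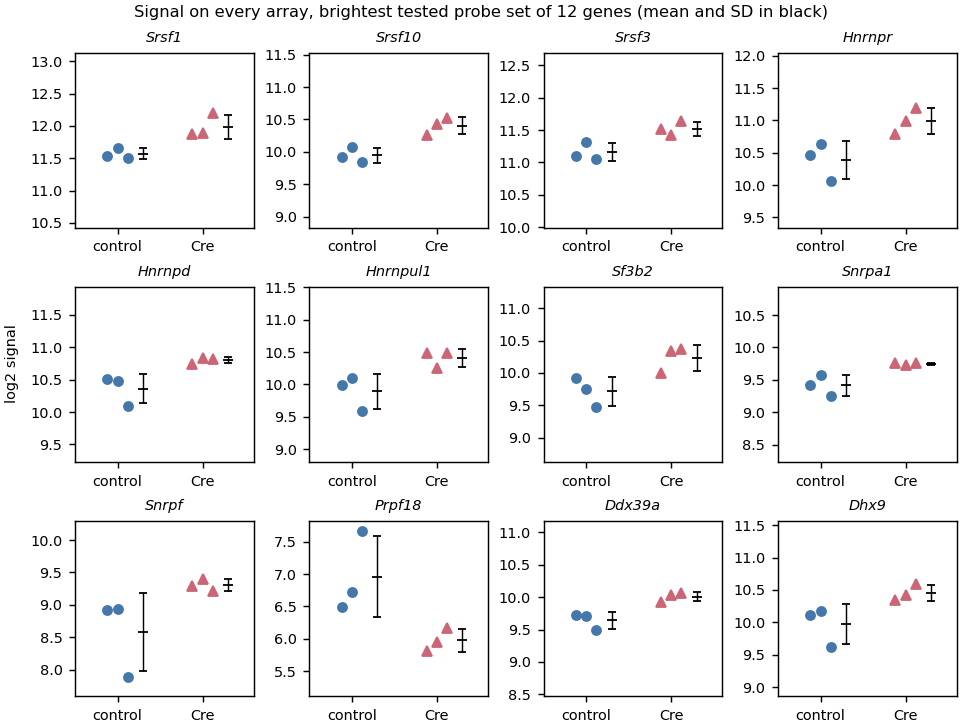
Log2 signal (y axis, the same span in every panel) of the brightest tested probe set of 12 genes on each control-labelled (circles) and Cre-labelled (triangles) array, with the mean and SD of 3 arrays in black. In 11 panels the Cre-labelled arrays all lie above the control-labelled ones; in that of Prpf18 they all lie below.

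Nearly all hnRNP genes had a higher mean. Of 19 genes, all tested, 18 were on that side and Hnrnpc, a core protein of hnRNP particles, sat at -0.0066 ± 0.15 SE. Their median difference was 0.23, a 1.17-fold difference, none passed at an adjusted p of 0.05 in limma (7 of 19 higher at an unadjusted p of 0.05, beside 10.7% of all genes), and 9 of 19 separated the groups upward, beside 15.3% of all genes. Hnrnpr read 10.47, 10.63 and 10.06 in control-labelled lungs against 10.78, 10.99 and 11.20 in Cre-labelled ones on an _x_at probe set (0.60 ± 0.16 SE, limma adjusted p = 0.080). A second Hnrnpr probe set of like brightness differed by only 0.16 ± 0.09 SE, and it too separated the groups. Hnrnpul1, a relative of hnRNP U, read 9.997, 10.10 and 9.59 against 10.49, 10.26 and 10.49 (0.52 ± 0.14 SE, adjusted p = 0.084). For Hnrnpd, also called AUF1 and known for binding AU-rich elements of unstable mRNAs, the values were 10.50, 10.48 and 10.10 against 10.75, 10.84 and 10.81 (0.44 ± 0.13 SE, adjusted p = 0.092). In these 3 genes control-labelled replicate 3 was the lowest array.

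Members with the best known roles showed the same small size. Hnrnpa1, a repressor of exon inclusion, differed by 0.25 ± 0.13 SE (limma adjusted p = 0.32) and Hnrnpa2b1, its close relative, by 0.30 ± 0.13 SE (adjusted p = 0.24). Without Cre-labelled replicate 3 the difference of Hnrnpa1 was 0.15. Hnrnpu, which ties RNA to the nuclear scaffold, read 11.13, 11.23 and 11.04 in control-labelled lungs against 11.44, 11.36 and 11.30 in Cre-labelled ones (0.23 ± 0.11 SE, adjusted p = 0.27). The 95% intervals of the 3 differences reached up to 0.53, 0.58 and 0.47, and those of Hnrnpa1 and Hnrnpu included 0. Hnrnpdl, a paralog of Hnrnpd, gave values that depend on the probe set: its brightest differed by 0.09 ± 0.15 SE, while a dimmer one read 8.40, 8.23 and 7.77 against 8.69, 8.78 and 8.98 (0.68 ± 0.16 SE, adjusted p = 0.053). All 7 of its probe sets were higher.

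**Figure D4:**
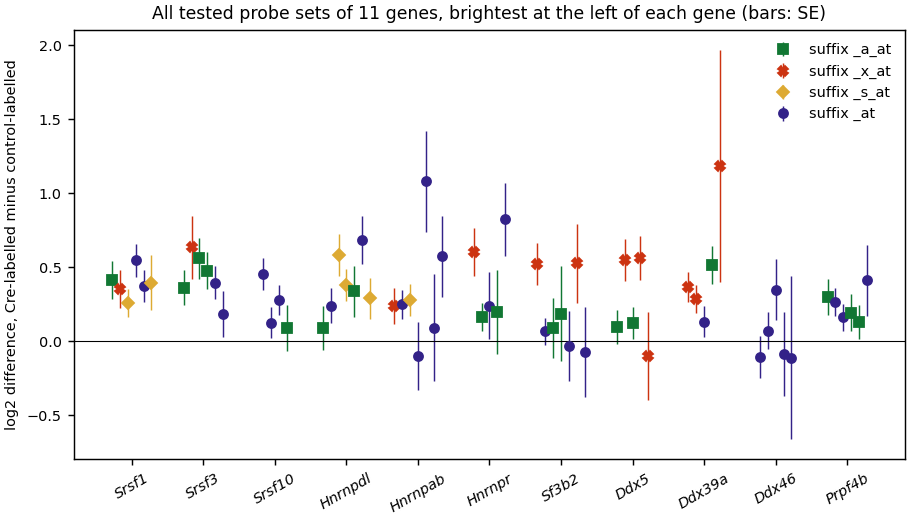
Log2 difference (y axis) of every tested probe set of 11 genes, ordered within each gene from the brightest at the left; bars are standard errors and symbols mark the ending of the probe set's name. All probe sets of Srsf1, Srsf3, Hnrnpdl and Prpf4b are above 0, while those of Ddx46 and Sf3b2 lie on both sides.

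Across the families 64 genes had several tested probe sets. All were higher in 39 of these genes, all lower in 3, and the signs were mixed in 22. The median span between a gene's highest and lowest difference was 0.26, larger than the median shift of the genes itself. The 27 of 247 probe sets with an adjusted p below 0.10 came from 19 genes, beside 7.85% of all tested probe sets. Of the 27, 8 were of the _x_at kind, as were 33 of the 247. Over the array, 121 of 1672 tested _x_at probe sets were higher at that level and 57 lower.

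Among branch-point factors, Sf3b2, a large SF3B subunit, read 9.92, 9.76 and 9.47 in control-labelled lungs against 10.01, 10.34 and 10.36 in Cre-labelled ones (0.52 ± 0.14 SE, limma adjusted p = 0.082). This came from an _x_at probe set; one of nearly equal brightness differed by 0.07 ± 0.09 SE, with overlapping groups, and 2 of the 7 were lower. Averaged over its probe sets Sf3b2 differed by 0.18, and with the cardiac marker mean as a covariate by 0.80 (limma adjusted p = 0.037). The cardiac marker mean itself ran lower with Cre (6.81 to 8.43, against 7.84 to 9.89 on control-labelled arrays). A fit that holds both cannot cleanly part group and covariate. Sf3b6, which contacts the branch point adenosine, differed by 0.28 ± 0.11 SE (adjusted p = 0.18) and Sf3b3 by 0.21 ± 0.09 SE (adjusted p = 0.27). Sf3b1, the core scaffold of the complex, read 10.87, 11.16 and 11.25 against 11.09, 11.05 and 11.11 (-0.0085 ± 0.12 SE, adjusted p = 0.98). Its direction is not settled, since it was positive after scaling to a common median, with array weights, with the mean of the gene's probe sets and in the fits without control-labelled replicate 2, control-labelled replicate 3 or Cre-labelled replicate 2. Of the SF3A genes, Sf3a3 differed by 0.27 ± 0.11 SE (adjusted p = 0.23), Sf3a1 by 0.31 ± 0.15 SE (adjusted p = 0.30) and Sf3a2 by -0.0040 ± 0.17 SE (adjusted p = 0.99), the last with a sign that changed between fits. Without control-labelled replicate 3 the differences of Sf3a3 and Sf3a1 were 0.17 and 0.15. Together 7 of these 9 genes had a higher mean.

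Snrp genes encode Sm ring proteins and proteins of single snRNPs. Of 8 tested 7 had a higher mean, with a median of 0.13, beside 48.5% of all genes with a higher mean. None was called in limma, and 2 were higher at an unadjusted p of 0.05, beside 10.7% of all genes. Snrpf, an Sm ring protein, had the widest difference, 8.92, 8.93 and 7.88 in control-labelled lungs against 9.30, 9.41 and 9.21 in Cre-labelled ones (0.73 ± 0.25 SE, limma adjusted p = 0.14). Control-labelled replicate 3 lay far below the other two, and without it the difference was 0.38. Snrpa1, a protein of the snRNP that binds the branch point, was tighter, at 9.42, 9.57 and 9.25 against 9.75, 9.73 and 9.76 (0.34 ± 0.10 SE, adjusted p = 0.11). Its partner Snrpb2 differed by 0.17 ± 0.10 SE (adjusted p = 0.40). Snrpn, an imprinted Sm protein gene typical of brain, had 1 probe set under this symbol, which read 1.95 ± 0.99 and 2.42 ± 1.44 (SD, n = 3 each) and was too dim to test.

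Prpf genes lay on both sides of 0, mostly above it. Of 12 genes, 8 had a higher mean and 4 a lower one, with a median of 0.16, and 24 of 30 tested probe sets were higher. Prpf18, which acts in the second step of splicing, had the largest negative difference of the 103 genes: 6.49, 6.72 and 7.67 in control-labelled lungs against 5.81, 5.95 and 6.17 in Cre-labelled ones (-0.98 ± 0.28 SE, limma adjusted p = 0.091). The groups did not overlap, but control-labelled replicate 3 stood well above the other two, and without it the difference was -0.63 (adjusted p = 0.16). Over all alternative fits its adjusted p ran from 0.039, with the replicate number as a block, to 0.20. Prpf19, a ubiquitin ligase of the active spliceosome, differed by 0.31 ± 0.11 SE (adjusted p = 0.14) and separated the groups. That is the highest of 4 tested Prpf19 probe sets, which ran from -0.08 to 0.31, and their average differed by 0.076 (limma adjusted p = 0.67). Prpf3, a protein of the tri-snRNP, separated the groups at 0.27 ± 0.11 SE (adjusted p = 0.20). Prpf8, the scaffold of the catalytic centre, read 10.41, 10.42 and 10.34 against 10.49, 10.45 and 10.35 (0.041 ± 0.09 SE, adjusted p = 0.86), with a 95% interval of -0.17 to 0.25.

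**Figure D5:**
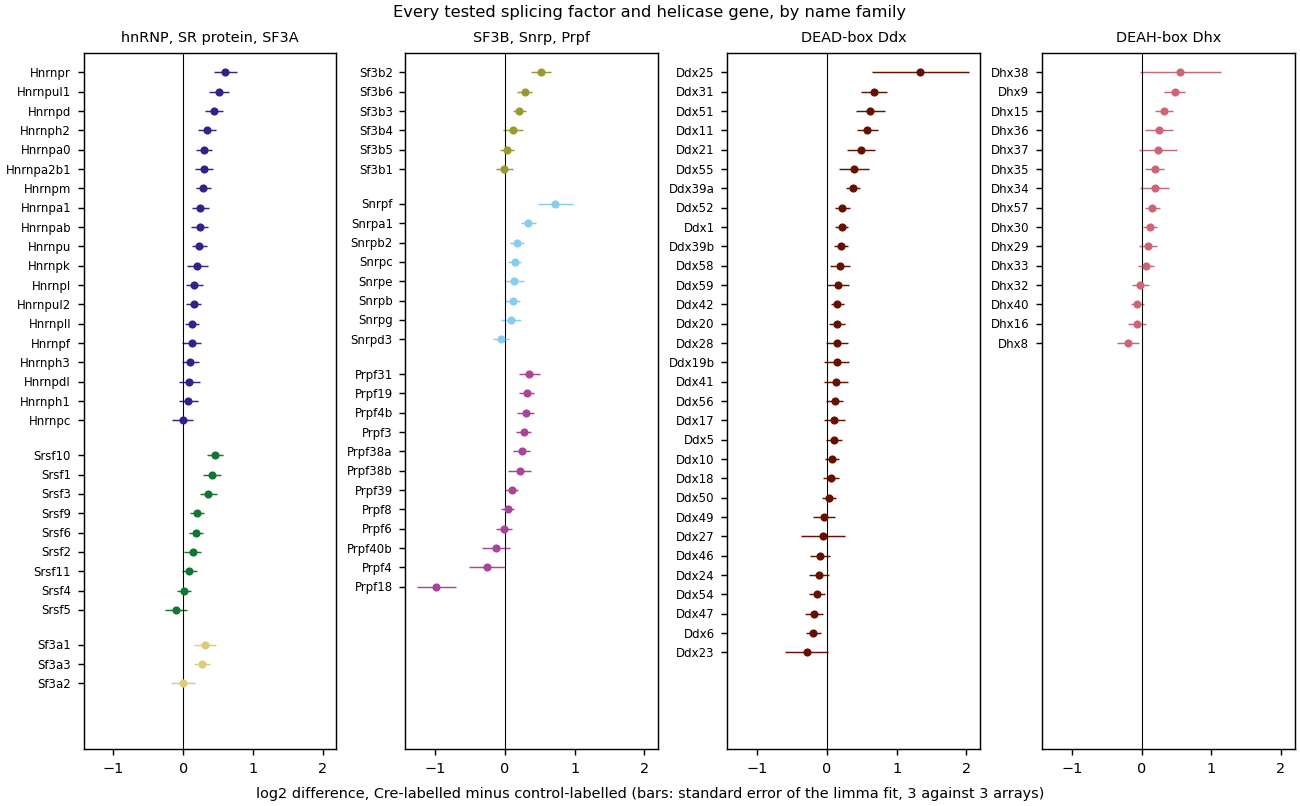
Log2 difference (x axis) of each of the 103 tested genes by its brightest probe set, ordered by size within its name family; bars are standard errors of the limma fit on 3 against 3 arrays. Most points lie between 0 and 0.5, with Prpf18 far to the left and Ddx25 far to the right on a wide bar.

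Helicases were mixed. Of 31 tested Ddx genes 23 had a higher mean (median 0.14), and of 15 tested Dhx genes 11 (median 0.15). Ddx11, a DNA helicase of sister chromatid cohesion despite its name, read 6.16, 5.88 and 6.06 in control-labelled lungs against 6.63, 6.53 and 6.67 in Cre-labelled ones (0.58 ± 0.15 SE, limma adjusted p = 0.074). Ddx31, a nucleolar helicase, read 6.24, 5.84 and 5.70 against 6.57, 6.76 and 6.48 (0.68 ± 0.19 SE, adjusted p = 0.082). In both genes the groups were separate. A second Ddx31 probe set of nearly equal brightness differed by 0.17 ± 0.17 SE (limma adjusted p = 0.63), with overlapping groups. Ddx39a and Ddx39b, near twins of the mRNA export machinery, differed by 0.37 ± 0.10 SE (adjusted p = 0.083) and 0.21 ± 0.10 SE (adjusted p = 0.30). Ddx39b was very even within groups, at 11.30, 11.32 and 11.30 against 11.56, 11.51 and 11.47.

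Dhx9, a helicase that resolves RNA structures and R-loops, read 10.12, 10.18 and 9.62 in control-labelled lungs against 10.35, 10.42 and 10.59 in Cre-labelled ones (0.48 ± 0.15 SE, limma adjusted p = 0.12), and the difference was 0.30 without control-labelled replicate 3. Dhx15, which releases spent spliceosomes, differed by 0.32 ± 0.13 SE (adjusted p = 0.20) and Dhx57 by 0.15 ± 0.11 SE (adjusted p = 0.47). Ddx21, needed for transcription and processing of ribosomal RNA, differed by 0.49 ± 0.20 SE (adjusted p = 0.22), with 7.85, 7.80 and 7.08 in control-labelled lungs. Without control-labelled replicate 3 this Ddx21 difference was 0.24, and with the cardiac marker mean as a covariate it was 0.92 (limma adjusted p = 0.047). That covariate ran lower in Cre-labelled lungs, so group and covariate are not cleanly parted here either. Ddx5 and Ddx17, paired helicases that act as splicing factors and transcriptional co-regulators, hardly differed on their brightest probe sets, 0.10 ± 0.11 SE (adjusted p = 0.70) and 0.11 ± 0.15 SE (adjusted p = 0.76). A pair of Ddx5 _x_at probe sets nevertheless differed by 0.55 and 0.56 (adjusted p 0.066 and 0.071) and separated the groups. Ddx17 turned to -0.018 without Cre-labelled replicate 3.

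By textbook role, a grouping made with the values known, 9 of 13 spliceosome helicases had a higher mean (median 0.13) and 10 of 15 nucleolar or ribosome assembly helicases (median 0.07). The viral RNA sensor Ddx58 (RIG-I) differed by 0.19 ± 0.15 SE (limma adjusted p = 0.55), and its relatives Dhx58 and Ddx60 were below the filter. Of the germ cell helicases, Ddx4 (Vasa) read 2.58 ± 0.85 and 2.59 ± 0.15 (SD, n = 3 each) and was not tested, as was Ddx43. Ddx25 had the largest positive difference, 1.34 ± 0.69 SE, but the values 4.30, 4.81 and 1.66 against 5.16, 4.63 and 4.98 overlapped and the difference was 0.37 without control-labelled replicate 3 (adjusted p = 0.33 with all arrays, 0.59 without it). The members not tested were Ddx4, Ddx43, Ddx60, Dhx58, Snrpn and Srsf12.

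Other genes of splicing and RNA metabolism, taken from 7 lists by role, leaned the same way but less far. These lists too were chosen with earlier results of these data known. Of 169 tested genes 118 had a higher mean, with a median of 0.09; 3 rose and none fell at an adjusted p of 0.05, a share near the 1.92% of all genes that rose (3.04% fell). The 3 were Tia1, which promotes the use of weak splice sites, at 9.47, 9.64 and 9.51 against 10.05, 10.06 and 10.06 (0.52 ± 0.09 SE, limma adjusted p = 0.020), Snrnp25 of the minor spliceosome (0.56 ± 0.11 SE, adjusted p = 0.026) and Khdrbs1, the signalling-linked regulator Sam68 (0.48 ± 0.11 SE, adjusted p = 0.044). All 3 calls separated the groups, but in fits without 1 array only 0 to 1 of the 169 genes rose. At an unadjusted p of 0.05 (limma), 31 of the 169 were higher and 3 lower, beside 10.7% and 12.8% of all genes. Whether the lists differ from the named families was not tested.

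By list, 31 of 45 Snrnp and core spliceosome genes had a higher mean (median 0.08, 1 rose), 48 of 60 splicing regulators (median 0.15, 2 rose) and 13 of 15 genes of snRNP assembly (median 0.16, 0 passed in limma, 3 higher at an unadjusted p of 0.05). Over all genes 48.5% had a higher mean and 1.92% rose. At that unadjusted p, 10.7% of all genes were higher and 12.8% lower. Next to Snrnp25 in the first list came Snrnp40, a spliceosomal snRNP protein, which read 10.33, 10.50 and 9.58 against 10.82, 10.87 and 10.93 (0.74 ± 0.21 SE, limma adjusted p = 0.087), with control-labelled replicate 3 far below the rest. In the assembly list Wdr77, a partner of the methyltransferase that modifies Sm proteins, had 0.44 ± 0.10 SE (limma adjusted p = 0.051) and the cap-binding gene Ncbp2 0.29 ± 0.11 SE (adjusted p = 0.18). Among regulators just short of the threshold were Sfpq (0.50 ± 0.12 SE, adjusted p = 0.052) and Elavl1, which stabilises mRNAs (0.46 ± 0.12 SE, adjusted p = 0.066). On the lower side lay Esrp2, an epithelial splicing regulator, at 9.28, 9.12 and 9.25 against 8.87, 8.95 and 8.84 (-0.33 ± 0.09 SE, limma adjusted p = 0.089), and Rbm47, also expressed in epithelia, at -0.31 ± 0.12 SE (adjusted p = 0.20). Both separated the groups, and Esrp2 was the only one of the 169 genes lower at an adjusted p of 0.10. Esrp1 went the other way, at 8.75, 8.75 and 8.76 against 8.85, 8.95 and 8.99 (0.18 ± 0.09 SE, limma adjusted p = 0.32). It also separated the groups. Of 14 genes of the exon junction complex and mRNA export 12 had a higher mean (median 0.11, 0 passed, 3 higher at an unadjusted p of 0.05), led by Thoc7 (0.47 ± 0.12 SE, adjusted p = 0.061) and Alyref (0.57 ± 0.15 SE, adjusted p = 0.068). In 3 lists most genes were not higher, 0 passed, and at an unadjusted p of 0.05 (limma) 1 gene in each was higher and 1 kinase list gene lower. Genes with Lsm names had 5 of 12 higher (median -0.0046), with Lsm3 at 0.28 ± 0.09 SE (adjusted p = 0.14) and Lsm14b at 0.29 ± 0.13 SE (adjusted p = 0.27). Kinases and phosphatases of SR proteins had 4 of 10 higher (median -0.07), with Srpk3 at -0.66 ± 0.26 SE (adjusted p = 0.19) and Dyrk1a at 0.28 ± 0.12 SE (adjusted p = 0.25). Helicases outside the Ddx and Dhx names had 5 of 13 higher (median -0.0098), with the exosome helicase Mtrex at 0.24 ± 0.09 SE (adjusted p = 0.17) and Dicer1 at 0.25 ± 0.11 SE (adjusted p = 0.28).

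Markers of other states differed between the groups beside these values. For scale, 1.92% of all genes rose and 3.04% fell at an adjusted p of 0.05 (limma). At an unadjusted p of 0.05, 10.7% of all genes were higher and 12.8% lower. All 31 tested cell cycle genes had a higher mean in Cre-labelled lungs, with a median of 0.52, and 20 rose. Their mean log2 level was 8.79 to 8.97 on control-labelled and 9.34 to 9.46 on Cre-labelled arrays. Alveolar type II markers were all lower (10 of 10, 5 fell, means 10.3 to 10.8 against 9.78 to 9.90), as were type I markers (8 of 8, 4 fell) and leukocyte markers (8 of 8, 3 fell). Of 10 lung mesenchyme markers, the cells in which Dermo1-Cre acts, 7 were higher, with a median of 0.05. Wnt2, a mesenchymal ligand, rose by 0.65 ± 0.09 SE (limma adjusted p = 0.0085), and 2 markers, Tcf21 and Pdgfra, were lower at an unadjusted p of 0.05. Of 8 endothelial markers 7 were lower and 0 passed in limma, with 4 lower at an unadjusted p of 0.05. Cardiac muscle markers were lower in 10 of 10 with 1 call, and their level varied widely between arrays of a group. The 2 erythroid markers tested were lower with 0 past the threshold in limma and 1 at an unadjusted p of 0.05, and 1 of 7 germ cell markers was bright enough to test. With the mean of the cardiac markers as a covariate 9 of the splicing factor and helicase probe sets rose in place of 1. In that fit 1.87% of all tested probe sets were called in either direction, against 3.56% without the covariate. Since the cardiac marker mean itself ran lower in Cre-labelled lungs, this fit cannot cleanly part group and covariate. The part that these shifts in cell state or makeup have in the higher splicing factor means was not tested.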

How the data were processed

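Per the labels' protocols, TRIzol and RNeasy total RNA was turned into biotinylated cRNA for Affymetrix arrays. MAS5 and affy are named, without version, in the submitters' processing notes. The deposited values are log2 signals, with the same trimmed mean (2% from each end) on every array; other scaling steps are not given in the sources used here. MAS5 subtracts background, so values well below the filter level of 4.00 are noisy. Of 45101 probe sets 64 controls were left out; 34945 had 1 symbol, 932 several and 9160 none in the platform annotation. The 27022 probe sets at or above the 40th percentile of the 6-array mean entered a limma fit (version 3.58.1, R 4.3.3; intensity trend, two-sided, no covariate) with Benjamini-Hochberg adjustment, on 4 residual and 5.32 prior degrees of freedom. The labels call the arrays biological replicates, and their number limits precision. A gene is represented by its brightest tested probe set. Of 297 entries in the gene lists, 276 matched, 1 through a synonym, 1 was already held by the rule and 20 were not analysed here. Named genes are those called, the 3 of smallest p in each of the 8 families, 20 genes fixed by role of which Snrpd1 is not analysed here, and called or leading list genes. Others named for probe sets, signs or dimness, and Esrp1, Esrp2, Rbm47, Wnt2, Tcf21 and Pdgfra, were picked after their values were seen. Members and lists were chosen with earlier results of these data known. The fit was tested on simulated data. Plots used Python 3.11.15 and matplotlib 3.10.9. The members' protein sequences were not analysed here.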

Additional observations from a re-analysis of the deposited data

How the results depend on the processing

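The median log2 difference of the 103 genes stayed positive in all 20 alternatives (0.12 to 0.19), and 74.8% to 86.4% of them had a higher mean. It was 0.19 after scaling to a common median, which moved the median of all probe sets to 0.04, and 0.12 with an offset of 64. Counts of calls varied widely. Member probe sets that rose numbered 12 after quantile normalization, 9 with the cardiac score as a covariate, 6 with a filter at the 60th percentile, 4 with the offset of 64, 26 at an adjusted p of 0.10 and 0 after median scaling, without a filter, without an intensity trend, with fetal sex (from Xist) as a covariate or with a 1.5-fold minimum. By gene they were 4, 3, 1, 1 and 8 in the first 5 of these and 2 when probe sets were averaged by gene. Of all tested probe sets, 4.69%, 1.87%, 6.66%, 4.17% and 7.85% were called in either direction in those first 5 settings. These shares were 2.39% after median scaling, 1.55% without a filter and 0.633% without an intensity trend. With fetal sex as a covariate the share was 2.17%, and with the 1.5-fold minimum 2.81%. Without 1 array, 0 member probe sets and 0 member genes rose or fell. At an adjusted p of 0.10, 1 probe set and 1 gene (Prpf18) fell.

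With the replicate number as a block, 2 member probe sets rose and 1, which was also 1 gene, fell. In that fit 4.84% of all tested probe sets were called in either direction. Same-numbered arrays correlated at -0.01, 0.20 and 0.14 in their deviations from the group means, so the numbers are not taken as pairs.

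Other splicing and helicase genes that rose numbered 7 (quantile), 0 (median scaling), 5 (offset of 64), 8 (60th percentile), 0 (no trend), 12 higher and 1 lower (adjusted p of 0.10), 0 (1.5-fold) and 8 (probe sets averaged), and 0 to 1 without 1 array. Over all tested probe sets, 384 were called lower after median scaling; 249 higher without a filter; 47 higher and 124 lower without a trend; 196 higher with fetal sex; 206 higher and 300 lower with the cardiac score; 932 higher and 1188 lower at an adjusted p of 0.10; and 93 to 163 higher and 208 to 351 lower without 1 array.

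Among the named genes, signs turned for 3 near 0. Sf3a2 read 0.0013 after quantile normalization, 0.030 after median scaling, 0.030 with array weights, 0.10 averaged over its probe sets, and -0.16 to 0.20 without 1 array. Sf3b1 read 0.026 after median scaling, 0.028 with array weights, 0.14 averaged over its probe sets, and -0.12 to 0.071 without 1 array. Ddx17 read -0.018 to 0.18 without 1 array. The cause of these moves was not tested. Without 1 array, differences also moved by over 1.5 times for Ddx5 (0.037 without Cre-labelled replicate 3), Ddx58 (0.082 without Cre-labelled replicate 2), Srsf2 (0.043 without Cre-labelled replicate 1), Prpf8 (0.011 without Cre-labelled replicate 1) and Snrpb2 (0.11 without Cre-labelled replicate 2). Of the 281 probe sets, 34 lay below the signal filter and were not tested.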
